A study of Danio rerio with 6 samples.

Results

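The genes described here encode apolipoproteins and plasma proteins that a zebrafish embryo makes in its yolk syncytial layer and, later, in its liver. They were chosen by gene symbol from a list of 10: apoa1a, apoa1b, apoa2, apoeb, apobb.1, apoc1, afp4, serpina1, cp and tfa. All 10 symbols were in the table of genes, and afp4 named 2 gene identifiers (ENSDARG00000041490 and ENSDARG00000095863), so 11 genes of 31624 were followed. Whole embryos at 33 hours post fertilization (hpf) were sequenced, in 3 libraries of rbm24a mutants and 3 libraries of wild-type embryos, all of the AB strain. The mutants carry an 8 bp deletion in rbm24a, made with TALENs, which are designed nucleases. The labels of the 3 mutant libraries disagree on which exon it lies in. Rbm24a encodes an RNA-binding protein, and the study's title is about its part in lens crystallin accumulation. Separate clutches are not named in the labels, and p-values set the difference between groups against the spread between these samples.

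Apolipoproteins are the protein coats of lipoproteins, the particles that carry lipid through the circulation. In zebrafish the yolk syncytial layer, a multinucleate layer at the surface of the yolk, packs yolk lipid into lipoproteins before the liver and intestine take over. Particles other than high-density lipoprotein are built on apolipoprotein B. Smaller apolipoproteins such as A-I, A-II, C-I and E join the surfaces of lipoprotein particles. Serpina1 (alpha-1-antitrypsin), ceruloplasmin and transferrin are secreted into plasma by the same kinds of cell.

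Total gene counts ran from 13242789 to 16043155 per library. Rbm24a itself was at 6.27, 11.3 and 7.0 FPKM (a read count scaled to exonic length and library total) in mutants, against 4.73, 5.52 and 4.49 FPKM in wild type. It was higher in mutants, with a log2 change of 0.77 (SE 0.16; edgeR adjusted p = 0.00571), and the groups did not overlap. So small a deletion does not let its level check the labels. Mutant replicate 2 stood apart from the other mutants, and 1107 genes were higher and 1234 lower in mutants of 16489 tested with all libraries. Without mutant replicate 2 the counts were 2393 and 2435. Defining markers of differentiated hepatocytes were near the floor: fabp10a, the liver fatty acid binding protein, was at 0.00 to 0.24 FPKM in mutants and 0.14 to 0.72 FPKM in wild type. Cyp7a1, of bile acid synthesis, was at 0.04 FPKM or below in every library, and ttr, transthyretin, was at 0.42 FPKM or below. The vitellogenin genes vtg1 to vtg6, which mothers express to make yolk protein, were at 0.13 FPKM or below in all libraries, and vtg7 was at 0.08 to 0.14 FPKM in mutants and 0.33 to 0.73 FPKM in wild type. In whole embryos, fewer cells of a type and less RNA per cell cannot be told apart.

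The 11 genes changed in both directions in the mutants. Apoa1b, apoa2, serpina1 and 1 afp4 gene (ENSDARG00000095863) were lower, cp and tfa were higher, and the other 5 did not pass the test. That is 6 of 11 called at an adjusted p of 0.05 (edgeR, quasi-likelihood, Benjamini-Hochberg over all genes), against 14.2% of all genes tested. Taken by direction, 4 of 11 were lower, against 7.48% of all genes, and 2 of 11 were higher, against 6.71%. The FPKM values of the groups did not overlap for 7 of 11 genes, against 30.5% of all genes. The 11 genes were chosen with earlier results of these data known. They are more abundant than most, and shares among genes of like level were not computed, so these counts are a description. All 11 passed the filter on low values, which asked for 0.5 FPKM or more on average. Their median log2 change was -0.27, against 0.00 for all genes tested. Fold changes come from counts scaled between libraries, so they differ a little from ratios of FPKM.

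**Figure D1:**
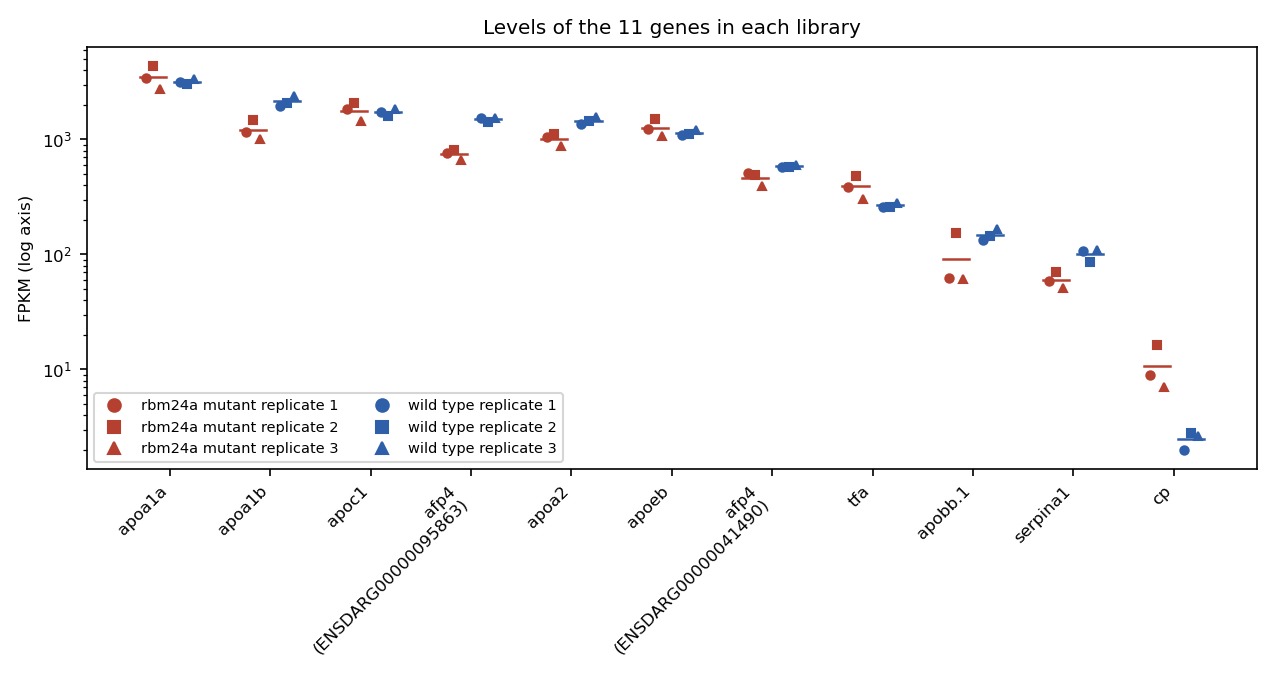
Level of each gene in FPKM (log axis) in every library, with rbm24a mutants in red on the left and wild type in blue on the right of each gene, and horizontal lines for the group means (n = 3 each). Apoa1a was at 2721 to 4332 FPKM in mutants and 3003 to 3351 FPKM in wild type at the top of the order, and cp was at 7.03 to 16.2 FPKM in mutants and 2.00 to 2.78 FPKM in wild type at the bottom.

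These transcripts were abundant, and their levels spanned more than 3 orders of magnitude in wild type. Together the 11 genes took 1.26%, 1.60% and 1.049% of the counted reads in mutants, against 1.43%, 1.43% and 1.60% in wild type. Their summed FPKM was 10528 ± 1963 in mutants and 12213 ± 692 in wild type (SD, n = 3 each), and these ranges overlapped. Per length, the order in wild type ran from apoa1a through apoa1b, apoc1, afp4 (ENSDARG00000095863), apoa2, apoeb, afp4 (ENSDARG00000041490), tfa, apobb.1 and serpina1 to cp. In wild type the neighbours in that order whose ranges overlapped were afp4 (ENSDARG00000095863) and apoa2. In mutants apoa1b was the fourth in the order of levels, behind apoc1 and apoeb, and the ranges of successive genes overlapped from apoc1 through apoeb and apoa1b to apoa2.

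Apolipoprotein A-I, the main protein of high-density lipoprotein, is encoded by 2 genes in zebrafish, and they did not behave alike. Apoa1b (ENSDARG00000101324) was at 1162, 1480.2 and 1010 FPKM in mutants, against 1957, 2071 and 2389 FPKM in wild type. Each mutant library was below each wild-type library. The log2 change was -0.77 (SE 0.14), and apoa1b was lower by edgeR's quasi-likelihood test (adjusted p = 0.00278). It was called in 15 of 15 alternative settings. Apoa1a (ENSDARG00000012076) was at 3417, 4332 and 2721 FPKM in mutants, against 3165, 3003 and 3351 FPKM in wild type. The mutant libraries lay on both sides of the wild-type range. Its log2 change was 0.18 (95% interval -0.16 to 0.52), which did not pass with edgeR (adjusted p = 0.529).

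The balance of the A-I genes within a library does not depend on how libraries are scaled. The ratio of apoa1a to apoa1b in FPKM was 2.94, 2.93 and 2.70 in mutants, against 1.62, 1.45 and 1.40 in wild type. The means were 2.85 ± 0.138 in mutants and 1.49 ± 0.112 in wild type (SD, n = 3 each), and the groups did not overlap. The exact permutation test, two-sided, gave p = 0.1 (also 0.1 after Benjamini-Hochberg adjustment over 6 pairs), which is the smallest p that 3 samples against 3 can give. The 6 pairs were chosen after values had been seen, and the share of other gene pairs whose ratios do not overlap was not computed, so the 6 ratios are a description. With 3 against 3, a p of 0.1 follows whenever the groups do not overlap. The ratios also reuse the values behind the tests of single genes, so they are not separate evidence.

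Apolipoprotein A-II, another protein of high-density lipoprotein, is encoded by apoa2 (ENSDARG00000015866). Apoa2 was at 1058, 1106 and 873 FPKM in mutants, against 1352, 1451 and 1552 FPKM in wild type. All mutant values were below all wild-type values. The log2 change was -0.47 (SE 0.13), which passed with edgeR (adjusted p = 0.0278). The call was lost without mutant replicate 3 (edgeR adjusted p = 0.135) and without wild-type replicate 1, 2 or 3 (adjusted p = 0.0791, 0.0792 and 0.151), and adjusted p over all alternatives lay between 0.00046 and 0.151.

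Apoc1 and apoeb are neighbours of apoa2 in the genome, in a group of apolipoprotein genes that also holds apoc2 and apoc4 (RefSeq, assembly GRCz12tu), and neither passed the test. Apoc1 (ENSDARG00000092170), for apolipoprotein C-I, a small exchangeable apolipoprotein, was at 1822, 2059 and 1443 FPKM in mutants, against 1744, 1611 and 1826 FPKM in wild type. The groups overlapped, and the log2 change was 0.08 (95% interval -0.22 to 0.39; edgeR adjusted p = 0.762). Apoeb (ENSDARG00000040295), for apolipoprotein E, a ligand of lipoprotein receptors, was at 1221, 1513 and 1068 FPKM in mutants, against 1087, 1105 and 1196 FPKM in wild type. These also overlapped, with a log2 change of 0.21 (95% interval -0.09 to 0.51; edgeR adjusted p = 0.377). The ratio of apoc1 to apoa2 in FPKM was 1.72, 1.86 and 1.65 in mutants, against 1.29, 1.11 and 1.18 in wild type. These ratios did not overlap (exact permutation test, two-sided, p = 0.1, the smallest possible), with a log2 difference of 0.55.

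Apolipoprotein B is the scaffold of lipoprotein particles other than high-density lipoprotein, and apobb.1 was the most abundant of the apolipoprotein B genes measured. Apobb.1 (ENSDARG00000022767) was at 62.1, 153 and 60.8 FPKM in mutants, against 134, 145 and 168 FPKM in wild type. Mutant replicates 1 and 3 were below every wild-type library, and mutant replicate 2 lay inside the wild-type range. With all libraries the log2 change was -0.68 (SE 0.25, 95% interval -1.22 to -0.15) and did not pass with edgeR (adjusted p = 0.0882). Without mutant replicate 2 it was -1.15 and passed with edgeR (adjusted p = 1.18e-08), in a comparison where 29.3% of all genes were called and 14.8% were called lower. Adjusted p over all alternatives lay between 1.18e-08 and 0.326.

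Apobb.1 and its relative apobb.2 shared the high value in mutant replicate 2. Apobb.2 was at 3.42, 6.95 and 2.91 FPKM in mutants, against 4.09, 4.30 and 4.36 FPKM in wild type (log2 change 0.08, edgeR adjusted p = 0.860). The ratio of apobb.1 to apobb.2 was 18.2, 22.1 and 20.9 in mutants, against 32.7, 33.8 and 38.5 in wild type. It was lower in each mutant library than in each wild-type library, mutant replicate 2 included (log2 difference -0.78, exact permutation test, two-sided, p = 0.1, the smallest possible). Apoba, the other apolipoprotein B gene, was at 19.7, 30.1 and 18.1 FPKM in mutants and 23.6, 23.4 and 26.8 FPKM in wild type, which overlapped. Without mutant replicate 2, edgeR called both lower, apobb.2 at -0.30 (adjusted p = 0.0342) and apoba at -0.26 (adjusted p = 0.0315). Genes of this family are similar in sequence, and the sources used here do not say how reads shared between copies were counted. The counting of shared reads is likewise not known for the other pairs of related genes compared here.

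**Figure D2:**
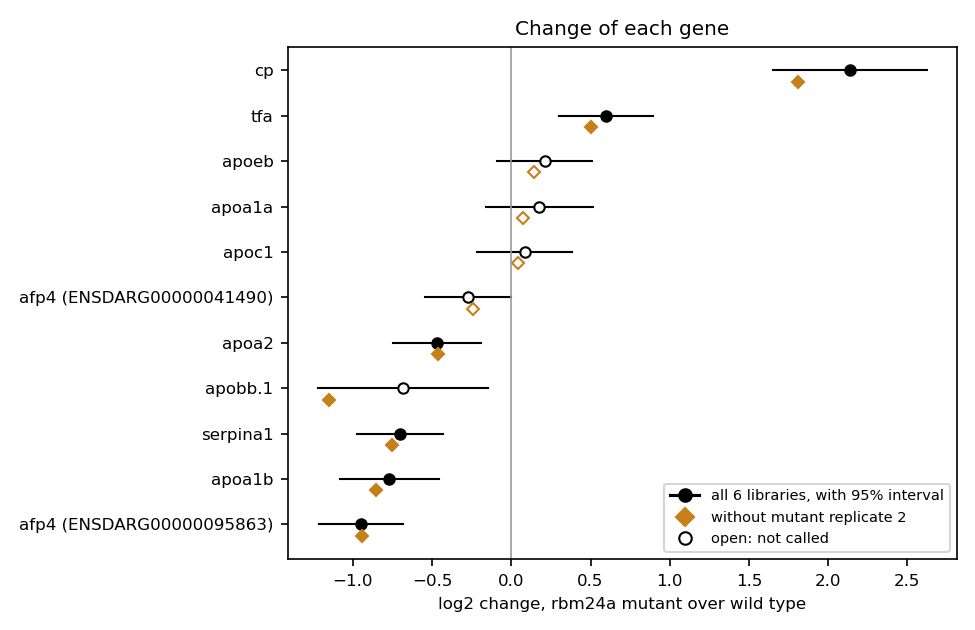
Log2 change of each gene, rbm24a mutant over wild type, with its 95% interval from all 6 libraries (black) and without mutant replicate 2 (orange diamonds). Filled symbols passed edgeR's quasi-likelihood test at an adjusted p of 0.05. Cp stands at 2.14 and the afp4 gene ENSDARG00000095863 at -0.95, and apobb.1 is the gene whose call differs between the settings, at -0.68 and -1.15.

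Mutant replicate 2 was higher than the other mutants for some of these genes and not for others. Its difference from the mean of mutant replicates 1 and 3 was 1.11 on the log2 scale for apobb.1 and 0.82 for cp. It was 0.29 for apoa1a, 0.27 for tfa and 0.24 for apoa1b, and -0.01 for both apoa2 and the afp4 gene ENSDARG00000095863. The median over all genes tested was 0.00. In wild-type replicate 2 the 11 genes differed from the other wild-type libraries by -0.39 (serpina1) to 0.19 (cp). Transcripts of the lowered genes in mutant replicate 2, other than apobb.1, were still below every wild-type library.

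The afp4 genes are named after type IV antifreeze protein of fish, which is related to apolipoproteins. The gene ENSDARG00000095863 was at 767, 815 and 658 FPKM in mutants, against 1536, 1404 and 1533 FPKM in wild type. The groups were far apart, with a log2 change of -0.95 (SE 0.12), and it was lower with edgeR (adjusted p = 0.000181) and in 15 of 15 alternative settings. The gene ENSDARG00000041490 was at 507, 492 and 396 FPKM in mutants, against 580.4, 574 and 596 FPKM in wild type. Its values did not overlap between the groups either, but the log2 change of -0.27 (SE 0.12) did not pass with edgeR (adjusted p = 0.180). The ratio of ENSDARG00000095863 to ENSDARG00000041490 was 1.51, 1.66 and 1.66 in mutants, against 2.65, 2.45 and 2.57 in wild type. These ratios did not overlap (exact permutation test, two-sided, p = 0.1, the smallest possible).

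Serpina1 encodes alpha-1-antitrypsin, an inhibitor of neutrophil elastase. Serpina1 (ENSDARG00000090286) was at 58.8, 70.7 and 51.6 FPKM in mutants, against 107, 86.8 and 109 FPKM in wild type. No mutant library reached the wild-type range, and the log2 change was -0.70 (SE 0.13; edgeR adjusted p = 0.00202), called in 15 of 15 alternative settings. Its genomic neighbour serpina1l, a related gene, went the other way, with 90.5, 102 and 68.9 FPKM in mutants, against 65.8, 61.3 and 67.9 FPKM in wild type (log2 change 0.46, edgeR adjusted p = 0.0225). The ratio of serpina1 to serpina1l was 0.649, 0.696 and 0.749 in mutants, against 1.63, 1.41 and 1.60 in wild type. This was the largest shift among the 6 ratios computed, at -1.15 on the log2 scale, and the groups did not overlap (exact permutation test, two-sided, p = 0.1, the smallest possible). How any reads shared by serpina1 and serpina1l were counted is not known.

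**Figure D3:**
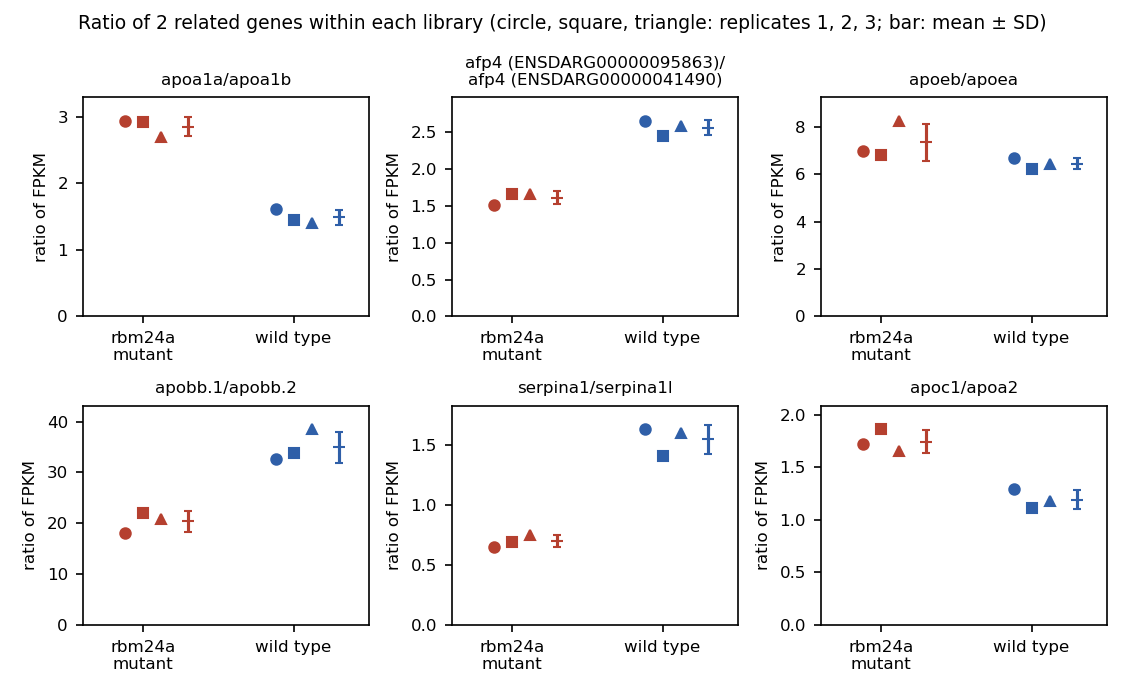
Ratio of the FPKM of 2 genes within each library, for 5 pairs of related genes and for the neighbours apoc1 and apoa2, with rbm24a mutants (red) left of wild type (blue) and the mean ± SD beside the points (n = 3 each). The means of apoa1a to apoa1b are 2.85 in mutants and 1.49 in wild type, and the smallest shift is that of apoeb to apoea, with means of 7.35 in mutants and 6.45 in wild type.

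Ceruloplasmin, which carries copper in plasma and oxidises iron, is encoded by cp, and it had the largest change among the 11 genes. Cp (ENSDARG00000010312) had 452, 808 and 405 reads in mutants, against 95, 137 and 137 reads in wild type. Its level was 8.93, 16.2 and 7.03 FPKM in mutants, against 2.00, 2.78 and 2.65 FPKM in wild type. Mutant replicate 2 had the highest value, and the other mutants were also above all wild-type libraries. The log2 change was 2.14 (SE 0.22), a 4.4-fold rise (edgeR adjusted p = 3.94e-05), and 1.81 without mutant replicate 2 (edgeR adjusted p = 2.36e-09). Cp was the only one of the 11 genes in the authors' deposited table of 743 changed genes, which is 2.35% of all genes. The authors' deposited table gives cp a log2 change of 1.66 with an adjusted p of 7.71e-10. The cut-off behind that table is not given here, so absence from it does not show that a gene was unchanged. DESeq2, run here on the same counts, called 2262 genes, with 6 of the 11 among them. These included afp4 (ENSDARG00000095863) at -0.95 (DESeq2 adjusted p = 2.36e-15), apoa1b at -0.77 (adjusted p = 1.03e-08) and serpina1 at -0.70 (adjusted p = 5.4e-06).

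Transferrin, the iron carrier of plasma, is encoded by tfa, which was also higher. Tfa (ENSDARG00000016771) was at 386, 481 and 306 FPKM in mutants, against 260.2, 258 and 281 FPKM in wild type. The lowest mutant library was above the highest wild-type library. The log2 change was 0.60 (SE 0.14), which passed with edgeR (adjusted p = 0.0108). The call was lost without wild-type replicate 1 (edgeR adjusted p = 0.0580) or wild-type replicate 2 (adjusted p = 0.0682), and adjusted p over all alternatives lay between 4.95e-05 and 0.0682.

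Other genes of iron and copper handling also changed in both directions. Of 25 listed symbols, 20 were tested, and edgeR called 4 higher and 2 lower around a median of 0.12 on the log2 scale. That is 30.0% of those tested. For this list and those below, the share over all genes tested was 14.2%, with 6.71% higher and 7.48% lower. Without mutant replicate 2 that share was 29.3%, with 14.8% lower. Without any other single library, 1367 to 1648 of all genes were called, against 2341 with all libraries. Counts for the lists with a library left out are to be read beside these. Hephl1b and hephl1a, relatives of ceruloplasmin, changed by 2.98 (SE 0.47) and -1.52 (SE 0.15). Slc31a1, the copper importer of the cell membrane, changed by 1.13 (SE 0.14), and steap3, a metal reductase, by 0.92 (SE 0.20). The transferrin receptor genes tfr1a and tfr1b were not called, at 0.58 and -0.17. The tfr1a value is 0.04 without mutant replicate 2, in which tfr1a was at 5.97 FPKM, against 2.0 and 2.42 FPKM in the other mutants. Wild-type replicate 2 was also the highest of its group for tfr1a, at 3.82 FPKM, against 1.79 and 1.45 FPKM. Hephl1b was at 0.860, 2.57 and 0.710 FPKM in mutants, against 0.200, 0.150 and 0.170 FPKM in wild type, with mutant replicate 2 again the highest. It passed the filter of 0.5 FPKM only through its mutant values.

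Among other apolipoprotein genes, 4 of 13 tested were called by edgeR, each of them higher, and the median log2 change was 0.04. Without mutant replicate 2, edgeR called 4 higher and 2 lower, and those lower were apoba and apobb.2. Apoa4a, an A-IV gene, was at 56.4 ± 6.80 FPKM in mutants and 41.6 ± 1.28 FPKM in wild type (SD, n = 3 each), a log2 change of 0.49. Apom, a lipocalin of high-density lipoprotein, changed by 0.57, apoa4b.3 by 0.88 and clu, clusterin, by 0.90. Apoc2 and apoea, in families with members of the 11 genes, were not called, at 0.16 and 0.04. The count of called genes was 2 without mutant replicate 1 or wild-type replicate 3.

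Genes for other plasma proteins were called more often higher than lower. Of 31 tested, 9 were higher and 3 lower by edgeR, and the median log2 change was 0.32, against 0.00 for all genes. F9b, for a clotting factor, changed by 2.03 (SE 0.38), serpind1, for heparin cofactor II, by 1.70 (SE 0.26), itih3a, for a heavy chain of the inter-alpha-trypsin inhibitor, by 1.51, and serping1, for the C1 inhibitor, by -1.53 (SE 0.32). The median gap between mutant replicate 2 and the other mutants was 0.51 (log2) for this list, against 0.19 for the 11 genes and 0.00 for all genes. Without that library 10 were higher and 6 lower, with a median of 0.16, in a setting where 29.3% of all genes were called. Leaving out wild-type replicate 2 left 5 called genes, leaving out wild-type replicate 1 or 3 left 6, and leaving out mutant replicate 1 left 7. Leaving out mutant replicate 3 gave 15. The count was 7 with limma on log2(FPKM + 1) or log2(FPKM + 0.1), and 6 with a minimum of 5 FPKM, which tests fewer genes. Some of the genes named were at low levels. Means in mutants and wild type were 2.27 and 0.57 FPKM for f9b, 3.44 and 1.08 FPKM for serpind1, and 0.69 and 2.03 FPKM for serping1. Fibrinogen genes fga, fgb and fgg were not called, at 0.09, -0.05 and 0.19.

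Of the genes for lipoprotein assembly and secretion, 3 of 17 tested were called by edgeR, each of them lower. That is 17.65%, near the 14.2% of all genes called in either direction, of which 7.48% were lower. Sar1b, a small GTPase of the vesicles that carry lipoproteins out of the endoplasmic reticulum, was at 22.4, 15.5 and 20.2 FPKM in mutants, against 50.4, 56.2 and 66.8 FPKM in wild type. No library of either group came near the other, and the log2 change was -1.51 (SE 0.17; edgeR adjusted p = 5.5e-05). Dgat1b, of triglyceride synthesis, changed by -0.99 and soat2, of cholesteryl ester synthesis, by -1.26. Both were at low levels, with means of 1.09 FPKM in mutants and 2.22 FPKM in wild type for dgat1b. Soat2 was at 0.39 FPKM in mutants and 0.98 FPKM in wild type on average. It therefore passed the filter of 0.5 FPKM only through its wild-type values. The median of the list was 0.05, and the relative sar1ab was at 0.14 and not called. The count of called genes was 1 without wild-type replicate 3.

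Of the genes for lipoprotein receptors and lipases, 4 of 20 tested rose and 1 fell. Lipg, an endothelial lipase, changed by 0.73 (SE 0.10), pltp, a phospholipid transfer protein, by 0.66, stab1, a scavenger receptor, by 0.62 and ldlrb, a low-density lipoprotein receptor, by 0.60. Lpl, lipoprotein lipase, also passed, at -0.30. The median was 0.08, and the count of called genes ran from 1 (without wild-type replicate 1) to 9 (without mutant replicate 2), with 3 without mutant replicate 1 or wild-type replicate 2 or 3.

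Liver enzyme genes, several of which the yolk layer also expresses, were called in both directions, with 7 of 20 tested higher and 3 lower and a median log2 change of 0.24. Bhmt, of methionine synthesis, was at 2280 ± 340 FPKM in mutants and 1677 ± 71.4 FPKM in wild type (SD, n = 3 each), and fabp1b.1, a fatty acid binding protein gene, at 1705 ± 329 FPKM in mutants and 1137 ± 25.4 FPKM in wild type. The largest changes were those of uroc1 at -1.19, fah at -1.03, aldh1l1 at -0.90 and tat at 0.66. Leaving out wild-type replicate 3 left 5 called enzymes, and leaving out mutant replicate 1 or wild-type replicate 2 left 6.

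Regulators of liver genes gave 2 higher and 2 lower of 20 tested (20.0% called, against 14.2% of all genes), with a median of 0.06. These were cebpb at 0.74, hnf1ba at 0.64, nr1h3, the liver X receptor, at -0.53 and foxa at -0.50. Hnf4a, a regulator of apolipoprotein genes, was at 0.570, 1.74 and 0.890 FPKM in mutants, against 1.17, 1.24 and 1.02 FPKM in wild type, and was not called (log2 change -0.08). Without mutant replicate 2, 8 regulators were called, in a setting where 29.3% of all genes were called. The count of regulators was 3 without mutant replicate 3 and 1 without any other single library. Of genes for yolk proteins and the yolk layer, lipf (0.42) rose among 8 tested (12.5% called), with 3 called without mutant replicate 2. The lipf call was lost without wild-type replicate 1, 2 or 3 and with limma on log2(FPKM + 1) or log2(FPKM + 0.1).

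**Figure D4:**
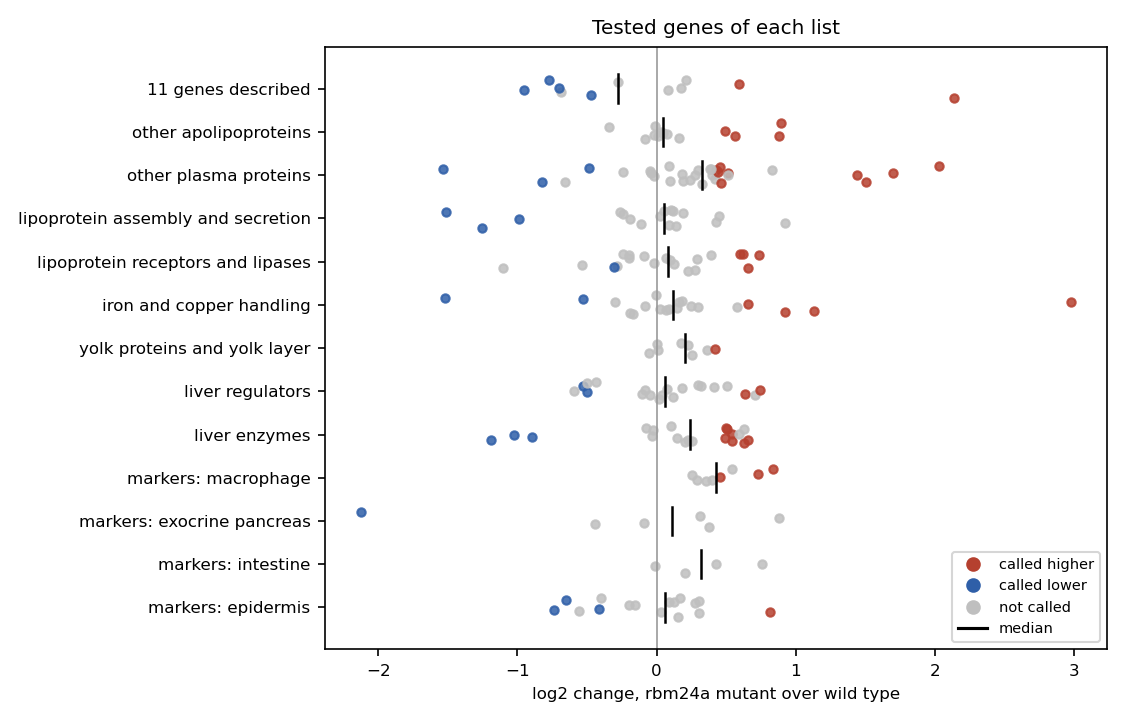
Log2 change of every tested gene of each list, rbm24a mutant over wild type, with genes called higher in red, called lower in blue and not called in grey, and a black line at the median of each list. The medians lie between -0.27, for the 11 genes described, and 0.43, for the macrophage markers.

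Markers of other cell types that express some of these genes were measured beside them. Macrophages express apoeb and apoc1, and 3 of 8 tested macrophage markers were higher: cybb (0.84), lcp1 (0.73) and coro1a (0.45). The summed level of the 12 markers was 45.9 to 67.4 FPKM in mutants and 38.0 to 52.4 FPKM in wild type. Most of that sum was ctss2.1, at 27.1 to 47.2 FPKM in mutants and 24.4 to 35.8 FPKM in wild type, which was not called (0.35). The 3 calls, on cybb, lcp1 and coro1a, were lost without mutant replicate 1 or 3 or wild-type replicate 1 or 2. These 3 genes are active in leukocytes at large, and mfap4 and mpeg1.1, more particular to macrophages, were not called, at 0.40 and 0.55. Csf1ra, a macrophage growth factor receptor under the filter on low values, was at 0.16, 0.41 and 0.18 FPKM in mutants, against 0.49, 0.45 and 0.55 FPKM in wild type. Ptprc, another listed marker under the filter, was at 0.25, 0.27 and 0.32 FPKM in mutants, against 0.05, 0.07 and 0.1 FPKM in wild type. Marco was at 0.14 FPKM or below in every library. Of 16 epidermal markers, 1 was higher (epcam at 0.82) and 3 were lower (cldne at -0.74, cyt1 at -0.65 and krt91 at -0.41), and their summed level was 6934 to 7808 FPKM in mutants and 6942 to 7679 FPKM in wild type. Without mutant replicate 2, where 29.3% of all genes were called, 9 epidermal markers were called, and without wild-type replicate 3, 2. The part of these cells in the values of the 11 genes was not tested.

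**Figure D5:**
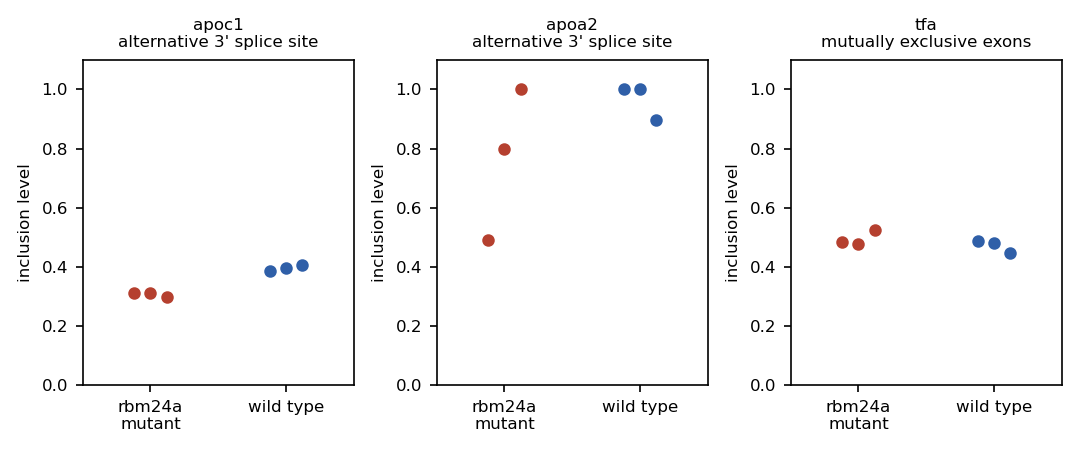
Inclusion level, from 0 to 1, of splicing events of apoc1, apoa2 and tfa in the authors' deposited tables, 3 values for each group in the order of the tables, with rbm24a mutants (red) left of wild type (blue). The apoc1 levels are 0.297 to 0.312 in mutants and 0.385 to 0.405 in wild type, while those of apoa2 and tfa overlap between the groups.

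Splicing was a further readout of these genes, and 4 of the 11 had events in the authors' deposited tables, 5 events in all, against 13.6% of all genes tested with at least 1 event there. The 11 genes are more abundant than most, and the share among genes of like level was not computed. The apoc1 event was the best covered. Its alternative exon starts at either of 2 acceptor sites 3 bp apart (GRCz11, chromosome 16, plus strand, exon from 24058088 or from 24058091 to 24058229, joined to an exon ending at 24057976). In the authors' deposited table the longer form had levels of 0.310, 0.312 and 0.297 in mutants, against 0.385, 0.395 and 0.405 in wild type. These levels rest on 12115, 14162 and 10022 junction reads in mutants and 9800.0, 9589 and 11916 junction reads in wild type, and the groups did not overlap. The difference in the authors' deposited table was -8.9 percentage points (FDR 1.67e-32). This table of alternative 3' splice sites holds 556 of the 1030 events it states, all lower in mutants, so events in the other direction were not analysed here.

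The other events were less clear between the groups. In the authors' deposited table an apoa2 acceptor pair 26 bp apart (GRCz11, chromosome 16, 24064560 or 24064586 to 24064808) had levels of 0.490, 0.799 and 1.0 in mutants, against 1.0, 1.0 and 0.897 in wild type, which overlapped despite an FDR of 7.66e-64. A pair of mutually exclusive tfa exons (GRCz11, chromosome 2, 17112463 to 17112562 and 17114003 to 17114185) had levels of 0.485, 0.477 and 0.526 in mutants, against 0.486, 0.480 and 0.446 in wild type, which also overlapped in the authors' deposited table. Both apoa1b events of the authors' deposited table rest on few reads, with 4 or fewer in any mutant library and 14 or fewer in any wild-type library. No event of cp, serpina1, apobb.1, apoa1a, apoeb or the afp4 genes was in these tables.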

How the data were processed

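Genes of whole embryos were measured by RNA sequencing in 3 rbm24a mutant and 3 wild-type libraries. Per the labels' protocols, libraries came from a TruSeq RNA kit and were read as 100 bp paired ends. Per the submitters' processing notes, the tools included HTSeq 0.6.1, HISAT2 2.0.1, DESeq2, cutadapt and bcl2fastq 2.17.1.14, and the build was GRCz11. The authors deposited whole-number counts per gene and FPKM values, which equal count over exonic length and library total within 0.005. A second deposited table of the authors gives log2 fold changes and adjusted p-values. The authors' deposited splicing tables hold an inclusion level score, with its difference, and a false discovery rate (FDR), which is a p-value adjusted for multiple testing. The sources used here do not name the tool. Wild type was taken as sample 1 from the comparison's name in the labels. Count cells that had lost their separators were parted where 1 solution gave back the levels within 0.00051.

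Counts were tested with edgeR 4.0.16 in R 4.3.3 (TMM scaling, quasi-likelihood test, two-sided, Benjamini-Hochberg over 16489 genes averaging 0.5 FPKM or more, threshold 0.05). Standard errors come from this fit. The test was also run on simulated counts. These held no library that stood apart, as mutant replicate 2 did, so that run does not cover this case. Alternatives used DESeq2 1.42.0, limma 3.58.1 on log2(FPKM + 1), other filters, left-out libraries, a replicate block and removal of a transcript length trend. The members and the 12 comparison lists were chosen with earlier results of these data known. Of 262 listed symbols, 241 were matched by symbol and 9 by gene identifier. Named were all members, up to 4 called genes of each list by size of change, and genes singled out after their values were seen, such as relatives of the members. Intervals cover the spread between samples.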

Additional observations from a re-analysis of the deposited data

How the results depend on the processing

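Of 165 values of the 11 genes over 15 alternatives, 155 kept their direction and their side of the threshold, 6 lost the call, 4 gained one and none changed sign. The calls on apoa1b, serpina1, cp and afp4 (ENSDARG00000095863) held in all 15. Apobb.1 gained a call with no filter on low values (-0.69), with the replicate block (-0.78) and with the block and the length trend removed together (-0.69), the cause of which was not tested. With 1 library left out, apobb.1 lay between -1.15 and -0.48, apoa2 between -0.55 and -0.39, and tfa between 0.50 and 0.73. Of the 11 genes, 4 to 7 were called with 1 library left out, with 7 without mutant replicate 2, and 7 with the replicate block. The settings in which apobb.1 gained a call also called more genes over the whole table than the 2341 of the main setting. These counts were 3387 with the replicate block and 3504 with the block and the length trend removed together. The count was 3098 with no filter on low values, which tests more genes. Over all genes 1431 were called with a minimum of 5 FPKM, which tests fewer genes, and 1367 to 4828 with 1 library left out, with 4828 without mutant replicate 2, 1383 without wild-type replicate 1 and 1367 without wild-type replicate 3. The comparison lists held 53 called genes, and 27 to 80 with 1 library left out. The main test did not pair the libraries by replicate number. Same-numbered libraries deviated together with correlations of 0.19, 0.32 and 0.05. Mutant replicates 1 and 2 correlated best with their own numbers, and mutant replicate 3 with wild-type replicate 1 (0.09). These values do not settle whether same-numbered libraries share an effect, so the replicate block is given as an alternative. The difference in summed FPKM was -1686, and -719 to -2681 with 1 library left out. Depth did not limit the members, the least covered of which, cp, had at least 95 reads in every library.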

Other observations

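Of the markers of 2 other gut organs, prss59.1, a trypsin gene of the exocrine pancreas, was at 0.75, 0.59 and 0.37 FPKM in mutants, against 2.67, 2.91 and 2.2 FPKM in wild type. It fell by 2.13 on the log2 scale (edgeR adjusted p = 0.00236). Prss59.1 was the called gene among 6 tested of that list, which is 16.7%, against 14.2% of all genes. Ptf1a, a regulator of the pancreas and hindbrain, was not called, at -0.09. None of 4 tested intestinal markers was called by edgeR, where 1 had an unadjusted p under 0.05, and limma on log2(FPKM + 1) called 1. Fabp2, an intestinal fatty acid binding protein gene, was at 199, 160.5 and 159 FPKM in mutants and 174, 178 and 194 FPKM in wild type.

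The mean of the standardised values of the 11 genes, which moved in both directions, was 0.16, 0.28 and -0.93 in mutants and 0.23, -0.20 and 0.46 in wild type. Among 7911 other genes averaging 5 FPKM or more, those most like this mean over the 6 libraries were tnnt2d (Pearson r of 0.99), gskip, si:dkeyp-115e12.7, FIS1 and ptk2bb (each 0.96). These are descriptions over libraries that share their scaling.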
